A study of Mus musculus with 18 samples.

Results

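The hedgehog pathway was followed through 9 genes in the cortex of adult mice: the transcription factor genes Gli1, Gli2 and Gli3, the receptor genes Ptch1, Hhip and Boc, the signal transducer gene Smo, the inhibitor gene Sufu and the ligand gene Shh. They were picked by symbol from the 55385 genes of the count table, and Gli1 leads the set because its level was already known to be lower in both duplication genotypes of these same libraries. Dp16 mice carry a segmental duplication of chromosome 16 used as a model of trisomy 21, Dp16_2xIFNRs mice carry the same duplication with the interferon receptor genes inside it brought back to the normal copy number, and WT mice are C57BL/6J. Each genotype was measured in 6 libraries of polyadenylated RNA, 3 from males and 3 from females, from mice of 17.1 to 18 weeks of age. The labels do not name the strain background of the duplication genotypes or the litters. A number in the library names is shared by 11 libraries across genotypes, with no word on what it marks. P-values from fits without it treat the libraries as independent.

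Hedgehog ligands bind Patched receptors on the receiving cell, which frees Smoothened to act in the primary cilium. This shifts the balance of Gli proteins away from repressor forms and towards activator forms. Gli1 is itself transcribed when the pathway is active and is widely used as its readout, and Ptch1 and Hhip, which dampen the signal, are transcribed in response to it as well. In adult mouse cortex Shh is known from a subset of deep-layer neurons and Gli1 from a subset of astrocytes.

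Library totals ran from 46346019 to 67281449 counts, and 18717 genes passed the filter on low counts, all 9 hedgehog genes among them. Levels are given as TMM-scaled CPM. They are deposited RPKM where genes are compared with each other. Calls come from edgeR's quasi-likelihood test with sex as a term and need an adjusted p under 0.05, with the adjustment (Benjamini-Hochberg) made over every tested gene. WT replicate 6 correlated least with the other libraries (median r 0.988, across genes). The summed CPM of 7 neuronal markers was 6170 to 7382 in Dp16, 6678 to 7309 in Dp16_2xIFNRs and 6417 to 7826 in WT. The sum of 8 striatal markers also varied within each genotype, from 354 to 992, from 346 to 1309 and from 376 to 1145 CPM in the same order.

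Gli1 had the lowest mean of the 9 genes per length in each genotype, and its level in both duplication genotypes lay below that in WT. It had 1.13 to 2.46 CPM in Dp16 cortex with a median of 1.67, 1.27 to 2.25 CPM in Dp16_2xIFNRs cortex with a median of 1.78, and 2.86 to 4.12 CPM in WT cortex with a median of 3.04. Every library of both duplication genotypes was below the lowest WT library, WT replicate 6. The means were 1.77 ± 0.456 CPM in Dp16, 1.74 ± 0.361 CPM in Dp16_2xIFNRs and 3.26 ± 0.486 CPM in WT (SD, n = 6 each). The fitted ratio to WT was 0.537 for Dp16 (log2 -0.90, SE 0.146) and 0.534 for Dp16_2xIFNRs (log2 -0.91, SE 0.146). Gli1 was selected on these contrasts, which share the WT libraries, so its separation from WT is a description with no test. CPM ranges without overlap occurred for 0.919% of all tested genes in Dp16 against WT and for 1.34% in Dp16_2xIFNRs against WT, and nothing is read from this for Gli1, which was chosen by that contrast.

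Few reads fell on Gli1. Over the 6 libraries of each genotype there were 557 Gli1 counts in Dp16, 583 in Dp16_2xIFNRs and 971 in WT. The pooled levels were 1.73 CPM in Dp16, 1.74 CPM in Dp16_2xIFNRs and 3.27 CPM in WT. Since Gli1 was chosen by its contrast with WT, these levels are a description with no test. In bulk tissue, fewer Gli1-expressing cells and less Gli1 RNA per cell cannot be told apart.

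Gli1 was chosen for lying low in both duplication genotypes, so their closeness to each other was in part fixed by the choice and is given as a description with no test. The fitted ratio of Dp16_2xIFNRs to Dp16 was 0.994, with a 95% interval of 0.797 to 1.24 (log2 -0.0082, SE 0.149). The libraries of both genotypes overlapped over most of their range.

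**Figure D1:**
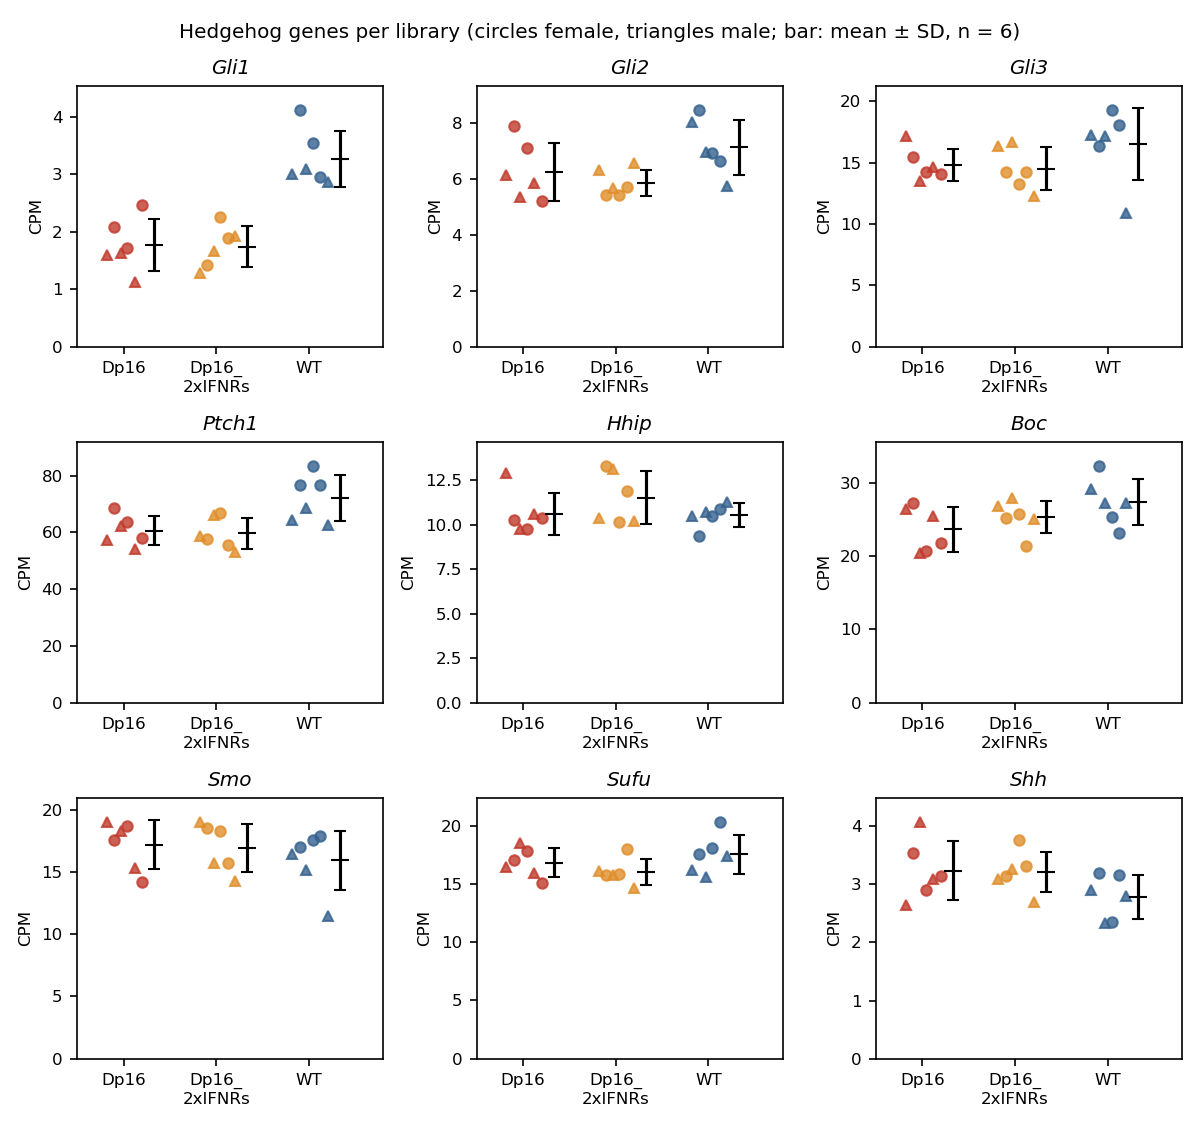
CPM of the 9 hedgehog genes in each library of Dp16, Dp16_2xIFNRs and WT cortex, with each axis starting at 0; circles are females, triangles males, and bars give the mean and SD of 6 libraries. For Gli1, all duplication libraries lie at or below 2.46 CPM and all WT libraries at or above 2.86 CPM, while the ranges of the other 8 genes overlap between genotypes.

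Females and males were considered apart, since each genotype had 3 of each. Among females, Gli1 had 1.72 to 2.46 CPM in Dp16, 1.42 to 2.25 CPM in Dp16_2xIFNRs and 2.95 to 4.12 CPM in WT. Among males it had 1.13 to 1.63 CPM in Dp16, 1.27 to 1.93 CPM in Dp16_2xIFNRs and 2.86 to 3.08 CPM in WT. The ratio of means to WT in females was 0.590 for Dp16 and 0.524 for Dp16_2xIFNRs. In males it was 0.487 for Dp16 and 0.544 for Dp16_2xIFNRs.

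Gli1 was fitted 1.25-fold higher in females than in males over all genotypes (95% interval 1.05 to 1.49, edgeR adjusted p = 0.741), which did not pass the adjustment over all genes. None of the 56 other tested hedgehog genes was called for sex, against 0.0641% of all genes. With Gli1 counted in, 5 hedgehog genes had an unadjusted p below 0.05, against 6.64% of all genes. The difference between sexes in the effect of genotype on Gli1 did not pass the test for Dp16 (ratio of ratios, female over male, 1.22, 95% interval 0.785 to 1.89, edgeR adjusted p = 1) or for Dp16_2xIFNRs (0.964, 95% interval 0.621 to 1.5, edgeR adjusted p = 0.995). These wide intervals leave room for sizeable differences. Calls for genotype by sex made up 0% of all genes for either genotype. An unadjusted p below 0.05 was found for 2 hedgehog genes in Dp16 by sex (3.08% of all genes) and for 3 in Dp16_2xIFNRs by sex (5.87% of all genes).

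The 9 genes span a wide range of levels. Per length, the WT means of the deposited RPKM ran from Ptch1 at 9.18 ± 1.01, Boc at 6.12 ± 0.678, Smo at 4.18 ± 0.598, Sufu at 2.60 ± 0.267 and Gli3 at 1.97 ± 0.334 down to Hhip at 1.16 ± 0.0841, Gli2 at 1.07 ± 0.136, Shh at 0.973 ± 0.136 and Gli1 at 0.798 ± 0.114 (SD, n = 6). Neighbours from Hhip down to Gli1 had ranges of mean ± SD that overlapped in WT. Gli1 averaged 0.437 ± 0.117 RPKM in Dp16 and 0.431 ± 0.0943 RPKM in Dp16_2xIFNRs. There the next lowest gene was Gli2, at 0.942 ± 0.147 and 0.886 ± 0.0755 RPKM in the same genotypes.

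**Figure D2:**
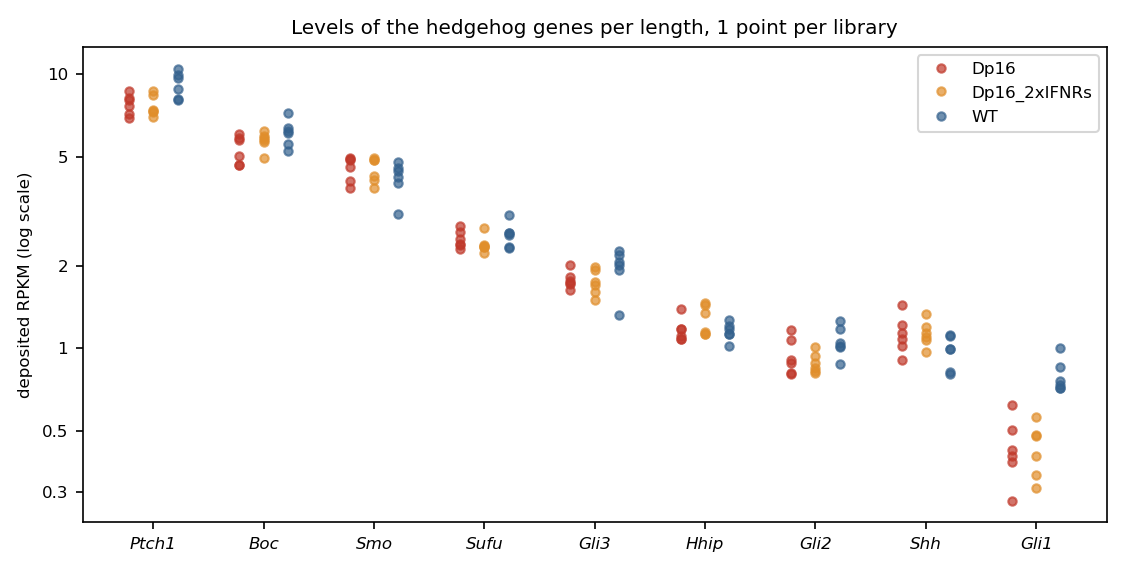
Deposited RPKM of the 9 hedgehog genes on a log scale, 1 point per library, with genes ordered by their WT mean and Dp16, Dp16_2xIFNRs and WT side by side for each gene. Ptch1 stands highest at about 9.18 RPKM in WT, and Gli1 has the lowest mean in each genotype, lower in both duplication genotypes than in WT.

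Apart from Gli1, none of the 8 hedgehog genes was called in any comparison, where 0.748% of all genes were called in Dp16 against WT and 1.05% in Dp16_2xIFNRs against WT. In each of these comparisons 3 of the 8 were above WT and 5 below, and 2 of the 8 had an unadjusted p below 0.05. That share was above the 8.84% of all genes in Dp16 against WT and the 11.5% in Dp16_2xIFNRs against WT, and was not tested. None of the 8 had CPM ranges apart from those of WT. Their median log2 fold change was -0.10 in Dp16 and -0.12 in Dp16_2xIFNRs. Over all tested genes it was -0.0017 in Dp16 and 0.00043 in Dp16_2xIFNRs.

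Among the ligands, Shh, the one made by deep-layer neurons, was fitted above WT in both duplication genotypes without passing the test. It had 2.64 to 4.08 CPM in Dp16 with a median of 3.12, 2.70 to 3.76 CPM in Dp16_2xIFNRs with a median of 3.21, and 2.33 to 3.19 CPM in WT with a median of 2.85. The genotypes overlapped, and the fitted ratio to WT was 1.16 for Dp16 (95% interval 0.976 to 1.39, edgeR adjusted p = 0.643) and 1.15 for Dp16_2xIFNRs (95% interval 0.968 to 1.37, edgeR adjusted p = 0.550). Ihh and Dhh, the ligands best known from cartilage and from gonads and peripheral nerves, were at low levels. Ihh averaged 0.260 ± 0.0736 CPM in Dp16, 0.303 ± 0.115 CPM in Dp16_2xIFNRs and 0.406 ± 0.0999 CPM in WT, and Dhh 0.258 ± 0.11, 0.256 ± 0.125 and 0.175 ± 0.0544 CPM in the same order. Neither passed the threshold (edgeR adjusted p from 0.374 to 0.756).

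Ptch1, the receptor that restrains Smo and is also a target of the pathway, came nearest to a call among the 8. It had 54.1 to 68.8 CPM in Dp16 with a median of 60.2, 53.1 to 66.8 CPM in Dp16_2xIFNRs with a median of 58.3, and 62.6 to 83.5 CPM in WT with a median of 72.6. The ranges overlapped, and the 3 WT libraries inside the Dp16 range were all male. The fitted ratio to WT was 0.844 for Dp16 (95% interval 0.765 to 0.930, edgeR adjusted p = 0.114) and 0.831 for Dp16_2xIFNRs (95% interval 0.754 to 0.916, edgeR adjusted p = 0.0552). DESeq2 called Ptch1 lower in Dp16 against WT (adjusted p = 0.0405), where it called 1.34% of all genes, and in Dp16_2xIFNRs against WT (adjusted p = 0.0120), where it called 2.16%. With the number in the library names as a block, an alternative chosen after seeing the data, Ptch1 was called in Dp16_2xIFNRs when limma-voom estimated a correlation within numbers (adjusted p = 0.0281) and not in Dp16 (adjusted p = 0.143). With that number as a fixed block in edgeR it was called in neither (adjusted p = 0.265 in Dp16_2xIFNRs and 0.946 in Dp16). Over the alternatives tried, the adjusted p ran between 0.0356 and 0.946 in Dp16 and between 0.0120 and 0.265 in Dp16_2xIFNRs, so the call turned on the settings. It passed in Dp16_2xIFNRs without WT replicate 6 (edgeR adjusted p = 0.0313) and without Dp16_2xIFNRs replicate 3 (edgeR adjusted p = 0.0135).

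Within sexes, Ptch1 in females was 58.2 to 68.8 CPM in Dp16, 55.6 to 66.8 CPM in Dp16_2xIFNRs and 76.6 to 83.5 CPM in WT. In males it was 54.1 to 62.1 CPM in Dp16, 53.1 to 66.0 CPM in Dp16_2xIFNRs and 62.6 to 68.7 CPM in WT. The test of genotype by sex did not pass (edgeR adjusted p = 1 for Dp16 and 0.826 for Dp16_2xIFNRs). Between the duplication genotypes the ratio was 0.985 (95% interval 0.894 to 1.09, edgeR adjusted p = 1).

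The other receptors differed less from WT or with more spread. Hhip, a membrane protein that captures ligand and is another pathway target, had 9.76 to 12.9 CPM in Dp16, 10.2 to 13.3 CPM in Dp16_2xIFNRs and 9.37 to 11.3 CPM in WT. Its ratio to WT was 1.01 for Dp16 (95% interval 0.887 to 1.14) and 1.09 for Dp16_2xIFNRs (95% interval 0.964 to 1.24, edgeR adjusted p = 0.992 and 0.626). Boc, a coreceptor that binds ligand beside Ptch1, had 20.5 to 27.3 CPM in Dp16, 21.4 to 27.9 CPM in Dp16_2xIFNRs and 23.2 to 32.4 CPM in WT. Boc lies on chromosome 16 outside the duplicated segment, at 44485049 to 44558897 (GRCm38), and its ratio to WT was 0.864 for Dp16 (95% interval 0.761 to 0.981, edgeR adjusted p = 0.452) and 0.925 for Dp16_2xIFNRs (95% interval 0.815 to 1.05, edgeR adjusted p = 0.693).

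The related coreceptor Gas1 averaged 9.46 ± 1.75 CPM in Dp16, 9.68 ± 1.06 CPM in Dp16_2xIFNRs and 11.7 ± 2.64 CPM in WT (edgeR adjusted p = 0.525 and 0.478). Cdon, the paralogue of Boc, averaged 8.55 ± 1.02, 8.70 ± 0.742 and 9.0 ± 1.24 CPM in the same order (edgeR adjusted p = 0.907 and 0.929). The receptor genes Ptch1, Boc, Gas1 and Cdon were fitted below WT in both duplication genotypes, with ratios from 0.808 to 0.968. None was called. Hhip (1.01 in Dp16 and 1.09 in Dp16_2xIFNRs) and Lrp2 (1.62 and 2.11), of the same role, were fitted above WT without a call.

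Smo, the membrane protein that carries the signal onward, had 14.2 to 19.0 CPM in Dp16, 14.3 to 19.0 CPM in Dp16_2xIFNRs and 11.5 to 17.9 CPM in WT. The ratio to WT was 1.08 for Dp16 (95% interval 0.935 to 1.25) and 1.07 for Dp16_2xIFNRs (95% interval 0.921 to 1.23, edgeR adjusted p = 0.834 and 0.822). The lowest Smo value, 11.5 CPM, belonged to WT replicate 6. Sufu, which holds Gli proteins inactive in the cytoplasm, had 15.1 to 18.5 CPM in Dp16, 14.6 to 18.0 CPM in Dp16_2xIFNRs and 15.6 to 20.3 CPM in WT. Its ratio to WT was 0.961 for Dp16 (95% interval 0.874 to 1.06, edgeR adjusted p = 0.893) and 0.914 for Dp16_2xIFNRs (95% interval 0.831 to 1.00, edgeR adjusted p = 0.448).

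The other Gli factors were closer to WT than Gli1, a ranking largely fixed by the choice of Gli1 for its distance from WT. Gli2, the main activator of the family, had 5.23 to 7.89 CPM in Dp16 with a median of 5.99, 5.42 to 6.55 CPM in Dp16_2xIFNRs with a median of 5.69, and 5.76 to 8.48 CPM in WT with a median of 6.95. Its ratio to WT was 0.875 for Dp16 (95% interval 0.745 to 1.03, edgeR adjusted p = 0.663) and 0.821 for Dp16_2xIFNRs (95% interval 0.699 to 0.964, edgeR adjusted p = 0.274). Gli3, which acts mostly as a repressor, had 13.5 to 17.2 CPM in Dp16 with a median of 14.4, 12.2 to 16.7 CPM in Dp16_2xIFNRs with a median of 14.2, and 10.9 to 19.3 CPM in WT with a median of 17.2. Its ratio to WT was 0.900 for Dp16 (95% interval 0.765 to 1.06, edgeR adjusted p = 0.772) and 0.879 for Dp16_2xIFNRs (95% interval 0.748 to 1.03, edgeR adjusted p = 0.565). WT replicate 6, at 10.9 CPM of Gli3, was below every other library, while the other WT libraries had 16.3 CPM or more.

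The wider pathway list of 58 genes held the 9 genes and 49 further ligand, receptor, cilium, regulator and target genes, and 57 of the 58 were tested. Besides Gli1, 23 of 56 were above WT and 33 below in Dp16, and 27 were above and 29 below in Dp16_2xIFNRs. None was called. An unadjusted p below 0.05 was found for 11 of 56 in Dp16 (3 higher, 8 lower) and 11 of 56 in Dp16_2xIFNRs (6 higher, 5 lower). These shares were above the 8.84% and 11.5% of all genes. The difference was not tested, and the list was chosen with earlier results of these data known. Of the tools tried, DESeq2 called Ptch1 and Ift122 in Dp16 and Ptch1 in Dp16_2xIFNRs, and limma-voom and limma-trend without a block called none. The median log2 fold change was -0.016 in Dp16 and -0.012 in Dp16_2xIFNRs. In Dp16_2xIFNRs against Dp16 none was called, where 0.0214% of all genes were, and none of the 56 had an unadjusted p below 0.05, which 2.19% of all genes had.

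**Figure D3:**
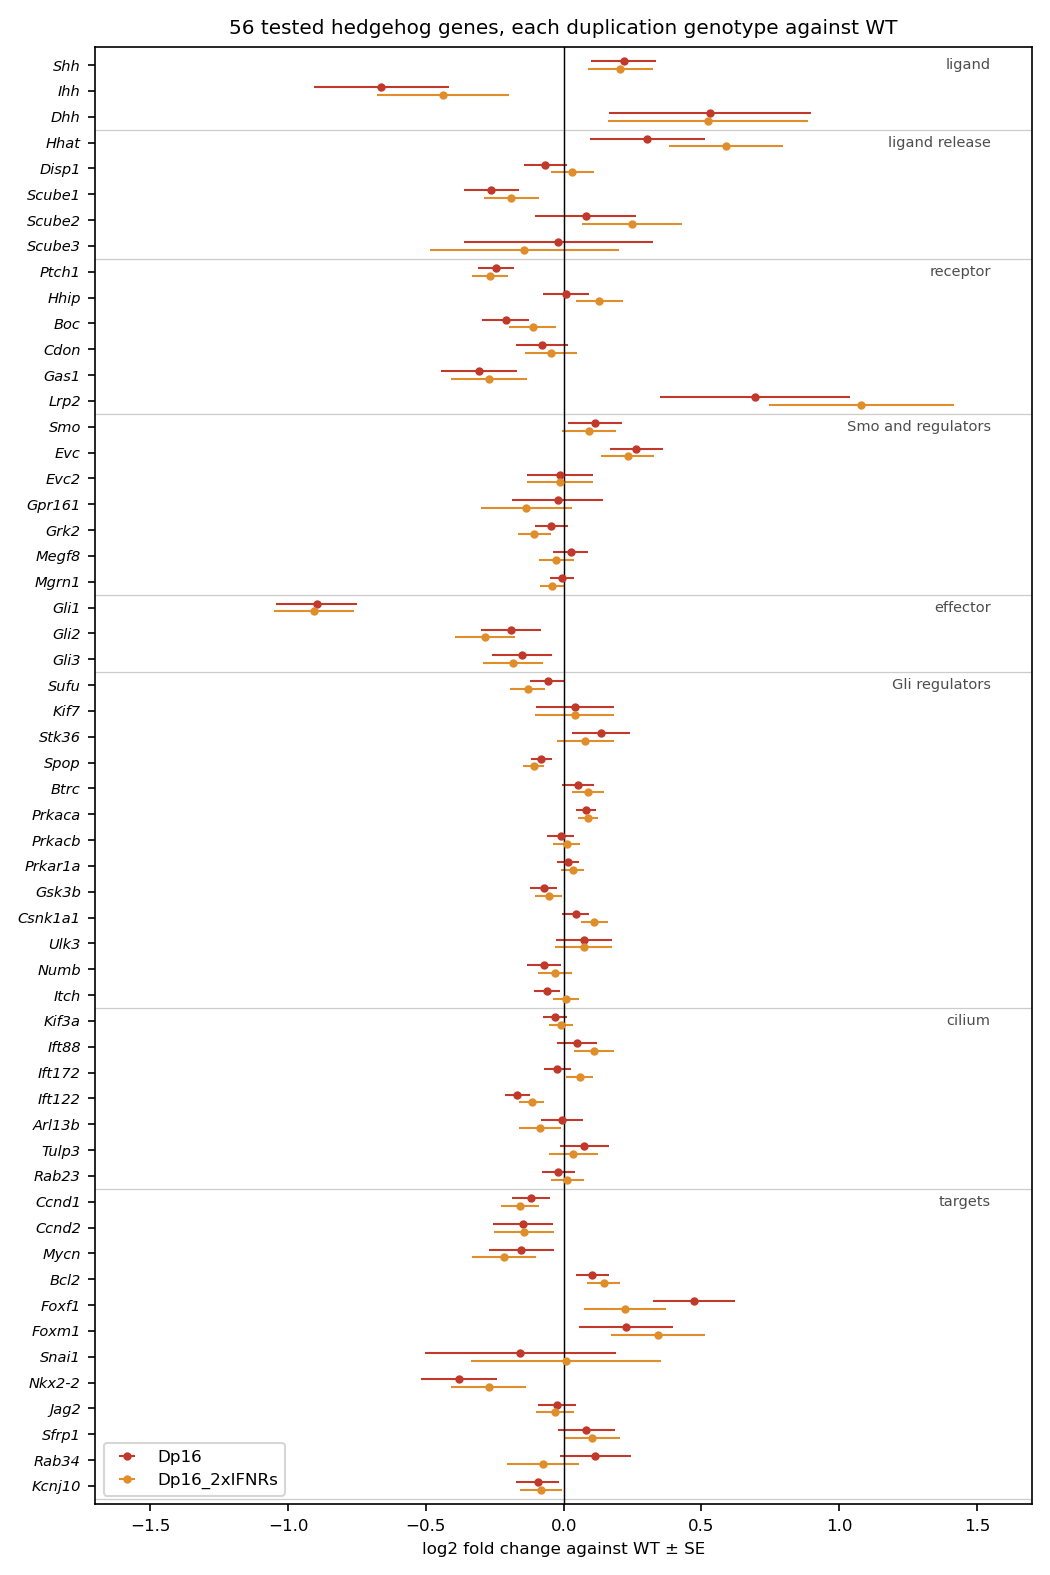
Log2 fold change against WT with its SE for 56 tested genes of the hedgehog list, grouped by role, with Dp16 above Dp16_2xIFNRs for each gene. Gli1 lies near -0.90 in both genotypes, Ptch1 near -0.25 in Dp16 and -0.27 in Dp16_2xIFNRs, and most cilium and regulator genes lie close to 0.

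By role, the genes of smallest p in Dp16 against WT were as follows. Of the ligand release genes, Scube1, a secreted protein that helps ligand leave the cell, had log2 fold changes of -0.26 in Dp16 and -0.19 in Dp16_2xIFNRs (edgeR adjusted p = 0.398 and 0.493), and Hhat, which adds the fatty acid to ligands, 0.30 and 0.59 (edgeR adjusted p = 0.757 and 0.226). Evc, a ciliary partner of Smo, had 0.26 and 0.23 (edgeR adjusted p = 0.360 and 0.323). Of the regulators, the protein kinase A subunit gene Prkaca had 0.082 and 0.089 (edgeR adjusted p = 0.520 and 0.317), and Spop, a ubiquitin ligase adaptor for Gli proteins, -0.081 and -0.11 (edgeR adjusted p = 0.564 and 0.229). Their small standard errors, at most 0.0387, go with levels near 200 CPM.

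Of the ciliary transport genes, Ift122, an intraflagellar transport protein, had log2 fold changes of -0.17 in Dp16 and -0.12 in Dp16_2xIFNRs (edgeR adjusted p = 0.113 and 0.290), and Tulp3, which brings receptors into the cilium, 0.074 and 0.035 (edgeR adjusted p = 0.902 and 0.951). Of the targets, Foxf1 averaged 2.26 ± 0.611 CPM in Dp16, 1.88 ± 0.309 CPM in Dp16_2xIFNRs and 1.63 ± 0.332 CPM in WT, a log2 fold change of 0.47 in Dp16 (edgeR adjusted p = 0.230). Nkx2-2, also a gene of the oligodendrocyte lineage, averaged 5.19 ± 0.928, 5.59 ± 0.707 and 6.75 ± 1.46 CPM in the same order, -0.38 in Dp16 (edgeR adjusted p = 0.362). In all, 5 of the 12 tested targets were above WT and 7 below in each duplication genotype. Foxa2, a target gene of the ventral neural tube, did not pass the filter and had no count in any Dp16 or WT library. The log2 fold changes of largest size in the list, chosen after their values were seen, were those of Lrp2, a ligand-binding receptor at 0.564 ± 0.265 CPM in Dp16, 0.741 ± 0.243 CPM in Dp16_2xIFNRs and 0.350 ± 0.161 CPM in WT (log2 0.69 in Dp16 and 1.08 in Dp16_2xIFNRs, edgeR adjusted p = 0.590 and 0.158), apart from Gli1 in Dp16.

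None of the 58 genes lies in the duplicated segment, taken as 75540514 to 97962622 of chromosome 16. Gli1 lies on chromosome 10, at 127329882 to 127341974 on the minus strand. Among segment genes with reported ties to the pathway, Dyrk1a, a kinase that acts on Gli proteins in cultured cells, rose to 131 ± 8.33 CPM in Dp16 and 132 ± 5.65 CPM in Dp16_2xIFNRs, against 92.4 ± 4.68 CPM in WT (edgeR adjusted p = 7.17e-07 and 5.77e-07). It missed the threshold under 1 of 30 alternatives, the fixed block of the library-name number in Dp16 (edgeR adjusted p = 0.0537). Olig1, a transcription factor of the oligodendrocyte lineage, averaged 176 ± 16.8 CPM in Dp16 and 173 ± 17.5 CPM in Dp16_2xIFNRs, against 137 ± 15.3 CPM in WT (edgeR adjusted p = 0.0371 and 0.0495). Its call held under 17 of 30 alternatives in Dp16 and 11 of 30 in Dp16_2xIFNRs, with adjusted p up to 0.454 and 0.143 under that fixed block. Olig2, its neighbour and a hedgehog-induced gene of the embryonic spinal cord, had log2 fold changes of 0.34 and 0.38 (edgeR adjusted p = 0.287 and 0.134).

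The genes around Gli1 were compared as well. Within 250 kb of Gli1, 30 genes were annotated and 22 tested, and none was called in any of the 3 comparisons. Their log2 fold changes ran between -0.34 and 0.44 in Dp16 and between -0.22 and 0.56 in Dp16_2xIFNRs, with medians of -0.020 and 0.031. An unadjusted p below 0.05 was found for 2 of the 22 against WT in each duplication genotype, near the 8.84% of all genes in Dp16 and the 11.5% in Dp16_2xIFNRs. Arhgap9 ends at 127329943, inside the annotated span of Gli1 (from 127329882) and on the opposite strand. How reads in that overlap were assigned is not known, since the strand setting of the counting is not given in the sources used here. Arhgap9 averaged 0.790 ± 0.207 CPM in Dp16, 0.911 ± 0.266 CPM in Dp16_2xIFNRs and 0.851 ± 0.156 CPM in WT (edgeR adjusted p = 0.959 and 0.938).

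**Figure D4:**
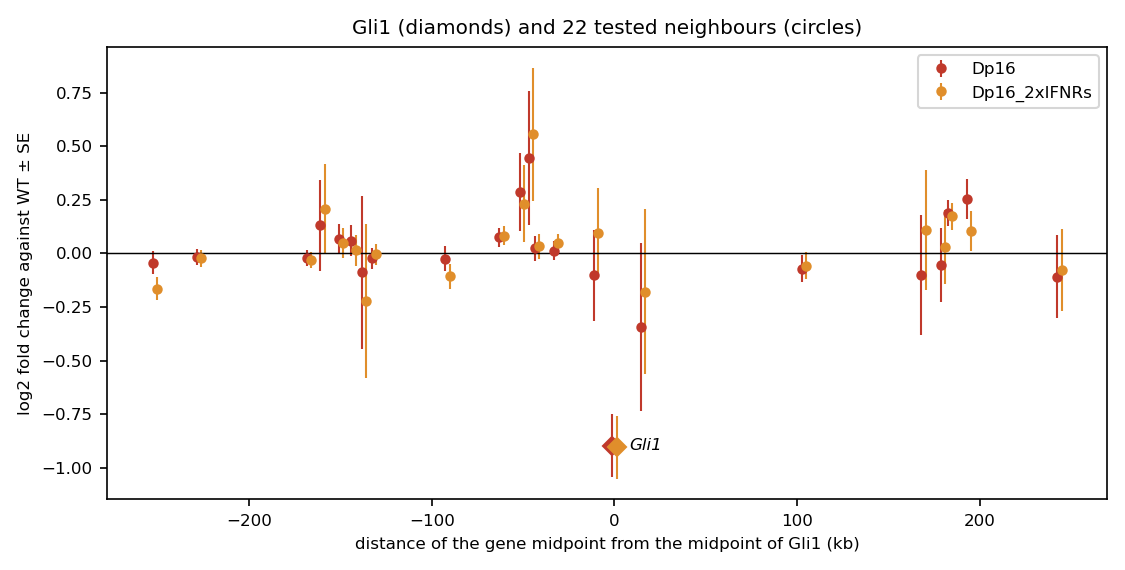
Log2 fold change against WT with its SE for Gli1 (diamonds) and its 22 tested neighbours (circles), by distance in kb between gene midpoints, for Dp16 and Dp16_2xIFNRs. Gli1 lies at -0.90 and -0.91, and the neighbours lie between -0.34 and 0.56.

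A search for the Gli binding motif was possible for 6 of the 9 promoters in RefSeq windows from 250 bases before to 50 after the gene start, those of Gli2, Gli3, Hhip, Ptch1, Smo and Sufu. The motif GACCACCCA, or its reverse complement TGGGTGGTC, was in 0 of these 6 windows and in 83 of all 32851 (0.253%), which says only that these letters are not in these windows.

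Likeness to Gli1 was measured over libraries. After the genotype and sex means were removed, the Pearson r of log2 CPM with Gli1 over the 18 libraries was 0.14 for Ptch1, 0.14 for Boc, 0.11 for Gli2, 0.05 for Shh, -0.19 for Gli3, -0.31 for Hhip, -0.32 for Smo and -0.39 for Sufu. The central 90% of 13308 genes with at least 1 CPM on average lay between -0.35 and 0.36, so that Sufu fell just outside. Without that removal, r was 0.74 for Ptch1 and 0.52 for Gli2, values that include the difference between genotypes. These correlations are descriptions over libraries that share the genotype groups.

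The genes most like Gli1 after removal were Iqcb1 (r = 0.73), Gab3 (0.71), Sco1 (0.71), Efna1 (0.70) and Klhl40 (0.70). The most unlike were Coa4 (-0.77), Ccnd1 (-0.76) and Cth (-0.71), of which Ccnd1, the cyclin D1 gene, is itself on the pathway list. All are extremes picked from 13308 genes over 18 libraries, so nothing is read from their names. Ccnd1 averaged 50.6 ± 3.15 CPM in Dp16, 49.3 ± 5.95 CPM in Dp16_2xIFNRs and 55.0 ± 3.86 CPM in WT (edgeR adjusted p = 0.670 and 0.364). Without removal the highest were Fbl (0.85), Zdhhc8 (0.85), Klhl40 (0.84), Brpf3 (0.83) and Slc13a5 (0.83). These genes were chosen by a correlation that includes the genotype difference, so their fold changes are descriptions. Slc13a5, a citrate transporter, was at 0.719-fold of WT in Dp16 and 0.683-fold in Dp16_2xIFNRs, Brpf3, a chromatin protein, at 0.850-fold and 0.839-fold, and Fbl, a ribosomal RNA methyltransferase, at 0.859-fold and 0.864-fold.

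Markers of the cells in which Gli1 and Shh are known overlapped between the genotypes in their summed level. The summed CPM of 12 astrocyte markers was 7565 to 9832 in Dp16, 7467 to 9755 in Dp16_2xIFNRs and 6626 to 10002 in WT. Of these markers 8 were above WT in Dp16 with none called, and 7 were above in Dp16_2xIFNRs, where Fgfr3 alone was called, lower by -0.30 on the log2 scale (edgeR adjusted p = 0.0464). That call held under 11 of 30 alternatives, with adjusted p up to 0.681 under the fixed block of the library-name number. The median log2 fold change of the list was 0.0087 in Dp16 and 0.012 in Dp16_2xIFNRs. The summed CPM of 6 layer 5 neuron markers was 215 to 272 in Dp16, 218 to 271 in Dp16_2xIFNRs and 230 to 296 in WT, with 4 of 6 below WT in each and none called.

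Lists of cells and regions near the cortex were checked in the same way, and no marker was at 0 throughout a genotype. The sum of 5 septal and ventral forebrain markers was 24.7 to 30.9 CPM in Dp16, 24.6 to 33.4 CPM in Dp16_2xIFNRs and 20.6 to 38.0 CPM in WT, with 4 of 5 below WT in each genotype. The sum of 6 neural stem cell and neuroblast markers was 68.4 to 93.5 CPM in Dp16, 66.3 to 77.9 CPM in Dp16_2xIFNRs and 66.1 to 92.9 CPM in WT, with 4 and 5 of 6 below WT. The sum of 7 meningeal fibroblast and pericyte markers was 201 to 264, 188 to 263 and 177 to 260 CPM in the same order, and that of 5 ependymal markers 14.6 to 23.0, 17.7 to 23.3 and 14.95 to 20.1 CPM. Choroid plexus markers summed to 7.38 to 379 CPM in Dp16, 7.08 to 18.8 CPM in Dp16_2xIFNRs and 6.11 to 197 CPM in WT, with single libraries far above the rest. All 6 choroid plexus markers were above WT in Dp16, and 5 of 6 were below in Dp16_2xIFNRs. Above WT were 4 of 5 ependymal markers in Dp16 and 5 in Dp16_2xIFNRs, and 3 and 4 of the 7 meningeal and pericyte markers. The 7 oligodendrocyte markers were all above WT in Dp16_2xIFNRs, at a median log2 difference of 0.13. The 4 progenitor markers were all below there, with a median of -0.10. In Dp16, 6 of the 7 oligodendrocyte markers were above (median 0.021), and the progenitor markers were 2 above and 2 below. None of the markers in this paragraph was called, and their part in the level of Gli1 was not tested.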

How the data were processed

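The authors deposited raw counts per gene for 18 cortex libraries, without normalization, and RPKM values computed from the same counts. For 31735 of 31735 genes tested, RPKM equalled the count over library total and a fixed gene length within a relative tolerance of 1e-06. Per the labels' protocols, TRIzol-extracted RNA was selected for poly-A, made into strand-specific libraries and sequenced from both ends. The build GRCm38 and the tools HISAT2 2.1.0, HTSeq 0.6.1, SAMtools 1.5, FastQC 0.11.5 and bcl2fastq are named, per the submitters' processing notes. How strand and shared reads were treated is not given in the sources used here.

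Counts were filtered with filterByExpr (minimum count 10), scaled by TMM and fitted with edgeR 4.0.16 (quasi-likelihood, robust, R 4.3.3) on genotype and sex over all 18 libraries, with 14 residual degrees of freedom and a common biological coefficient of variation of 12.2%. Adjusted p-values are Benjamini-Hochberg over 18717 genes. SEs and 95% intervals follow from the fold change and its F value. Positions come from GENCODE M21, in which 55144 of 55385 genes were placed by identifier. Log2 CPM for correlations used a prior count of 2.

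The genes and lists were chosen with earlier results of these data known. Named are the 9 genes, Ihh, Dhh, Gas1 and Cdon, any called list gene, up to 2 uncalled genes of smallest p per role, 3 segment genes, neighbours of Gli1 and the genes most and least correlated with it. The values of 1 gene named by this rule are not reported here. Alternatives covered DESeq2 1.42.0, RLE size factors, TMM without the segment's genes, limma-voom and limma-trend (limma 3.58.1, log2 of RPKM plus 0.1), other filters and covariates, and each library left out. Of the 5 numbers that libraries share in their names, each covers a single sex, and all 7 pairs with a shared number deviated together from their genotype means (r 0.10 to 0.43). They were therefore treated as pairs in added alternatives only, and the reported calls take the libraries as independent. After sex was removed, 5 of 7 had r over 0.1 (-0.096 to 0.32). Among same-sex pairs of other numbers and genotypes, 16 of 47 had r over 0.1 before that removal, with a median of 0.069. The library-name number was added as a block after seeing the data. It was a fixed term in edgeR in place of sex (4 residual degrees of freedom) and, in limma-voom, a correlation estimated at 0.250.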

Additional observations from a re-analysis of the deposited data

Results flagged for a closer look

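In a group of 6, a highest or lowest library was marked where its gap to the next library exceeded 0.625 of the group's range. This was checked for 27 sets, the 9 genes in 3 genotypes, and 2 were marked, where chance marks about 1 in 20.

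Hhip stood at 12.9 CPM in Dp16 replicate 1, while the other Dp16 libraries had 9.76 to 10.6 CPM. Without that library the log2 fold change of Hhip in Dp16 against WT was -0.054. Gli3 stood at 10.9 CPM in WT replicate 6, while the other WT libraries had 16.3 to 19.3 CPM. Without that library the log2 fold change of Gli3 was -0.25 in Dp16 and -0.29 in Dp16_2xIFNRs, and neither was called.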

How the results depend on the processing

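The log2 fold change of Gli1 ran between -0.98 and -0.66 in Dp16 and between -0.98 and -0.77 in Dp16_2xIFNRs over the 30 alternatives, single libraries left out included. Between Dp16_2xIFNRs and Dp16 it ran between -0.17 and 0.080 over the same alternatives. It changed sign with the sample numbers of the titles as a replicate block (0.0040), and ran between -0.090 and 0.080 when single libraries were left out. The count of called hedgehog genes besides Gli1 in Dp16 against WT, 0 as reported, was 2 under DESeq2 and 1 with that replicate block. In Dp16_2xIFNRs against WT it was 1 (Ptch1) under DESeq2, without a filter, with age added, with that replicate block and with the correlation block of the library-name number, and 0 to 1 when single libraries were left out. In Dp16_2xIFNRs against Dp16 it was 0 under all 30 alternatives. For sex and for genotype by sex it was 0 under the 5 alternatives tried there, which had no block and left no library out. The replicate block of the titles gave Ptch1 an edgeR adjusted p of 0.0356 in Dp16 and 0.0143 in Dp16_2xIFNRs. The title numbers were not taken as pairs, since only 11 of 18 same-numbered pairs deviated together with r over 0.1 (range -0.18 to 0.43). Some of these title pairs join a male and a female, unlike the pairs of the library-name number.

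Of 720 values of the other 8 genes under the alternatives, 689 kept direction and side of the threshold, 22 changed sign and 9, all Ptch1, became called. In Dp16_2xIFNRs against Dp16, with libraries left out, Shh ran from -0.058 to 0.080, Ptch1 from -0.071 to 0.013, Smo from -0.087 to 0.023 and Gli3 from -0.084 to 0.020. Shh was 0.0038 under limma-trend on RPKM. With the library-name number as a fixed replicate block, Shh was 0.12 and Boc -0.0035 in the same comparison and Hhip -0.056 in Dp16 against WT. With it as a correlation, Shh was 0.014 and Hhip -0.011. Hhip in Dp16 against WT ran from -0.054 to 0.039. The cause of these changes was not tested. Over all genes, DESeq2 called 250 in Dp16 against WT and 405 in Dp16_2xIFNRs against WT, and the replicate block of the titles 304 in Dp16_2xIFNRs against WT, where the reported counts were 140 and 196. The fixed block of the library-name number called 33 and 60, and 2 in Dp16_2xIFNRs against Dp16 in place of 4. It drew on the 11 libraries with a shared number only. With libraries left out these ran from 102 to 147 and from 121 to 270. Gli1 had 72 to 212 counts per library, and differences within a sex rest on 3 libraries a genotype.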
